A study of Mus musculus with 8 samples.

Results

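Accessibility at 6 regulators of entry into the cell cycle was compared between haematopoietic stem cells (HSCs) of old and of young mice. These were the inhibitor genes Cdkn2a, Cdkn2b, Cdkn1a and Cdkn1b, the kinase gene Cdk6 and the D-type cyclin gene Ccnd2. The members were all peaks lying fully inside 5 windows of the mm9 mouse genome, which gave 60 of the 126871 peaks in the table. The windows ran on chromosome 4 from 88.910 to 88.970 Mb (Cdkn2a and Cdkn2b, 8 peaks), on chromosome 17 from 29.210 to 29.250 Mb (Cdkn1a, 9 peaks) and on chromosome 6 from 134.855 to 134.890 Mb (Cdkn1b, 5 peaks). The other windows ran on chromosome 5 from 3.330 to 3.540 Mb (Cdk6, 28 peaks) and on chromosome 6 from 127.050 to 127.125 Mb (Ccnd2, 10 peaks). The rule left out 1 peak that crossed the edge of a window.

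HSCs were sorted from bone marrow of C57BL/6 mice by the LSK CD150+ CD48- phenotype, in which LSK stands for lineage-negative, Sca-1-positive and Kit-positive and the other markers are SLAM-family receptors. Omni-ATAC-seq, in which a transposase cuts open chromatin and reads are counted over peaks, gave 4 old and 4 young libraries. No treatment or altered gene is named for either group, and the labels give neither the age in months, the sex nor the number of mice behind a library. P-values therefore measure the spread between libraries, which may be technical. Age and anything else that differed between the groups cannot be told apart.

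The proteins of these genes act on one switch. CDK6, bound to a D-type cyclin such as cyclin D2, phosphorylates the retinoblastoma protein and so lets a cell leave G1. The INK4 proteins p16INK4a (from Cdkn2a) and p15INK4b (from Cdkn2b) bind CDK4 and CDK6 and block them, while the CIP/KIP proteins p21 (Cdkn1a) and p27 (Cdkn1b) bind cyclin and kinase complexes, above all those of CDK2. Cdkn2a also encodes p19ARF from a separate start site in another reading frame, and p19ARF stabilises p53, whose best known target is Cdkn1a. In HSCs the level of CDK6 is known to set how readily a quiescent cell enters division, p21 and p27 are known as brakes on division, and p16INK4a is a classical marker of senescence.

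Promoter sequences are given for Cdkn2a, Cdkn2b, Cdkn1a and Cdk6, because the peak with the highest mean level in their windows was called higher in old HSCs, as described in the paragraphs that follow. They are the 250 bases before an annotated start site, read 5′ to 3′ on the strand of the gene, from RefSeq on the build GRCm38.p6. The table of promoters held 5 of the 6 genes, with 2 start sites each for Cdkn2a and Cdkn1a. Its positions are on another build than the peaks, so whether a given mm9 peak covers a given start site was not analysed here. Capitals mark motifs found on either strand, which are named after the sequences and do not overlap in them.
Cdkn2a upstream start, chr4:89294620-89294869, minus strand: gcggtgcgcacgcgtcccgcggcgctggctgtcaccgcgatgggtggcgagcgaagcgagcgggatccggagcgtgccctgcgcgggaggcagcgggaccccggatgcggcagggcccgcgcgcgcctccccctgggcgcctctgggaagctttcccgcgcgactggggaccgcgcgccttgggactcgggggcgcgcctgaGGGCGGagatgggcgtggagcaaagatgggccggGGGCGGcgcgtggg
Cdkn2a downstream start, chr4:89282193-89282442, minus strand: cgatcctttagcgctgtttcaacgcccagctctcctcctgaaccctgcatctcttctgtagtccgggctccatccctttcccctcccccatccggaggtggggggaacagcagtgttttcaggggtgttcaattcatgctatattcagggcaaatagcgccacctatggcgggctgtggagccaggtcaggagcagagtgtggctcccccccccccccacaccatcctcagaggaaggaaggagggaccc
Cdkn2b, chr4:89311033-89311282, minus strand: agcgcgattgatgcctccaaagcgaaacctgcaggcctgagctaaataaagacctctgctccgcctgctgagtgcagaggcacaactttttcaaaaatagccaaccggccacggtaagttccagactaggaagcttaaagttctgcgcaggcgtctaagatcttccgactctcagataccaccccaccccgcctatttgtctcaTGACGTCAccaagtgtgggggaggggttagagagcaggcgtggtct
Cdkn1a upstream start, chr17:29090729-29090978, plus strand: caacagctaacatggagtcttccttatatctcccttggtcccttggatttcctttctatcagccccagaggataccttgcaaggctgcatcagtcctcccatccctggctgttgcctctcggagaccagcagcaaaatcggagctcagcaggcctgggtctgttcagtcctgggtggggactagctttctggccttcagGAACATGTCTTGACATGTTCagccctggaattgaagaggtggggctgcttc
Cdkn1a downstream start, chr17:29093519-29093768, plus strand: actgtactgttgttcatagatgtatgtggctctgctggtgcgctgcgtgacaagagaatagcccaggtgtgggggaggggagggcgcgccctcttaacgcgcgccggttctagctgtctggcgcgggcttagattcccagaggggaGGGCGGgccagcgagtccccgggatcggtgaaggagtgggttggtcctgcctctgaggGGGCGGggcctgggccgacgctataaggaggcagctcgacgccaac
Cdk6, chr5:3343643-3343892, plus strand: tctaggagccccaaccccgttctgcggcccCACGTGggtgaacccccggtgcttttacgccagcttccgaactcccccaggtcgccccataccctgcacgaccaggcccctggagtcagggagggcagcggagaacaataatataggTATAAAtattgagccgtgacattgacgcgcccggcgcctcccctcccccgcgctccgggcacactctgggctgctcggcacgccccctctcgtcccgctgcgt

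In the Cdkn2b sequence the capitals are a CRE (TGACGTCA), 46 bases before the start, a motif that 1.55% of the 32851 promoter sequences of this length held. Before the upstream Cdkn1a start lay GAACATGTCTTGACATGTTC, a p53 response element of 20 bases searched with at most 1 mismatch, and 0.0761% of promoters held a match to that element. The downstream Cdkn1a sequence had 2 GC boxes (GGGCGG), as did that before the upstream Cdkn2a start, and 32.7% of promoters held this motif. None of the motifs searched was found before the downstream Cdkn2a start. The Cdk6 sequence had a TATA box (TATAAA), found in 12.4% of promoters. It also had an E-box (CACGTG), found in 6.02%. The CCAAT box (33.8% of promoters) and the AP-1 motif TGANTCA (6.75%) were searched as well and had no match in the printed sequences. These matches describe the letters only and were not measured as sites of binding.

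Library totals ran from 4200905 to 5129684 counts. Levels are in CPM, the count divided by the library size after TMM scaling. Log2 fold changes (old over young) have approximate standard errors (SE), derived from the F statistic of edgeR's quasi-likelihood test. A peak was called when its p, adjusted by the Benjamini-Hochberg method over all 73164 tested peaks, was below 0.05. On the first principal component of all tested peaks old replicate 4 lay at -13.7, apart from the other old libraries (-111 to -96.6) and from the young ones (52.9 to 99.0), and its values are given separately where they bear on a result. In sorted bulk cells, more cells with a region open and a region more open in each cell cannot be told apart.

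Of the 60 peaks, 42 had enough counts to be tested, and 9 of these were called, 5 higher and 4 lower in old HSCs. Over all tested peaks 20.5% were called, 10.0% higher and 10.4% lower, so the 9 of 42 lay near the share of the whole table. The old and young libraries did not overlap at 11 of the 42 peaks, against 21.1% of all tested peaks. The median log2 fold change was -0.024 over the 42 peaks and 0.010 over all tested peaks. Calls fell in 4 of the 5 windows, and in 3 of these both directions occurred. The 5 peaks that rose had mean levels of 15.2 to 70.6 CPM and changed by 0.19 to 0.50 on the log2 scale. The 4 that fell had mean levels of 2.53 to 17.5 CPM and log2 fold changes between -1.54 and -0.63. The 18 untested peaks had 18 to 60 counts over the 8 libraries and mean levels of 0.508 to 1.67 CPM. Among these 18, the groups did not overlap at 3 peaks, against 14.3% of all 53707 untested peaks. Without a count filter, edgeR called the same 9 peaks among all 60, where 16.1% of all 126871 peaks were called.

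**Figure D1:**
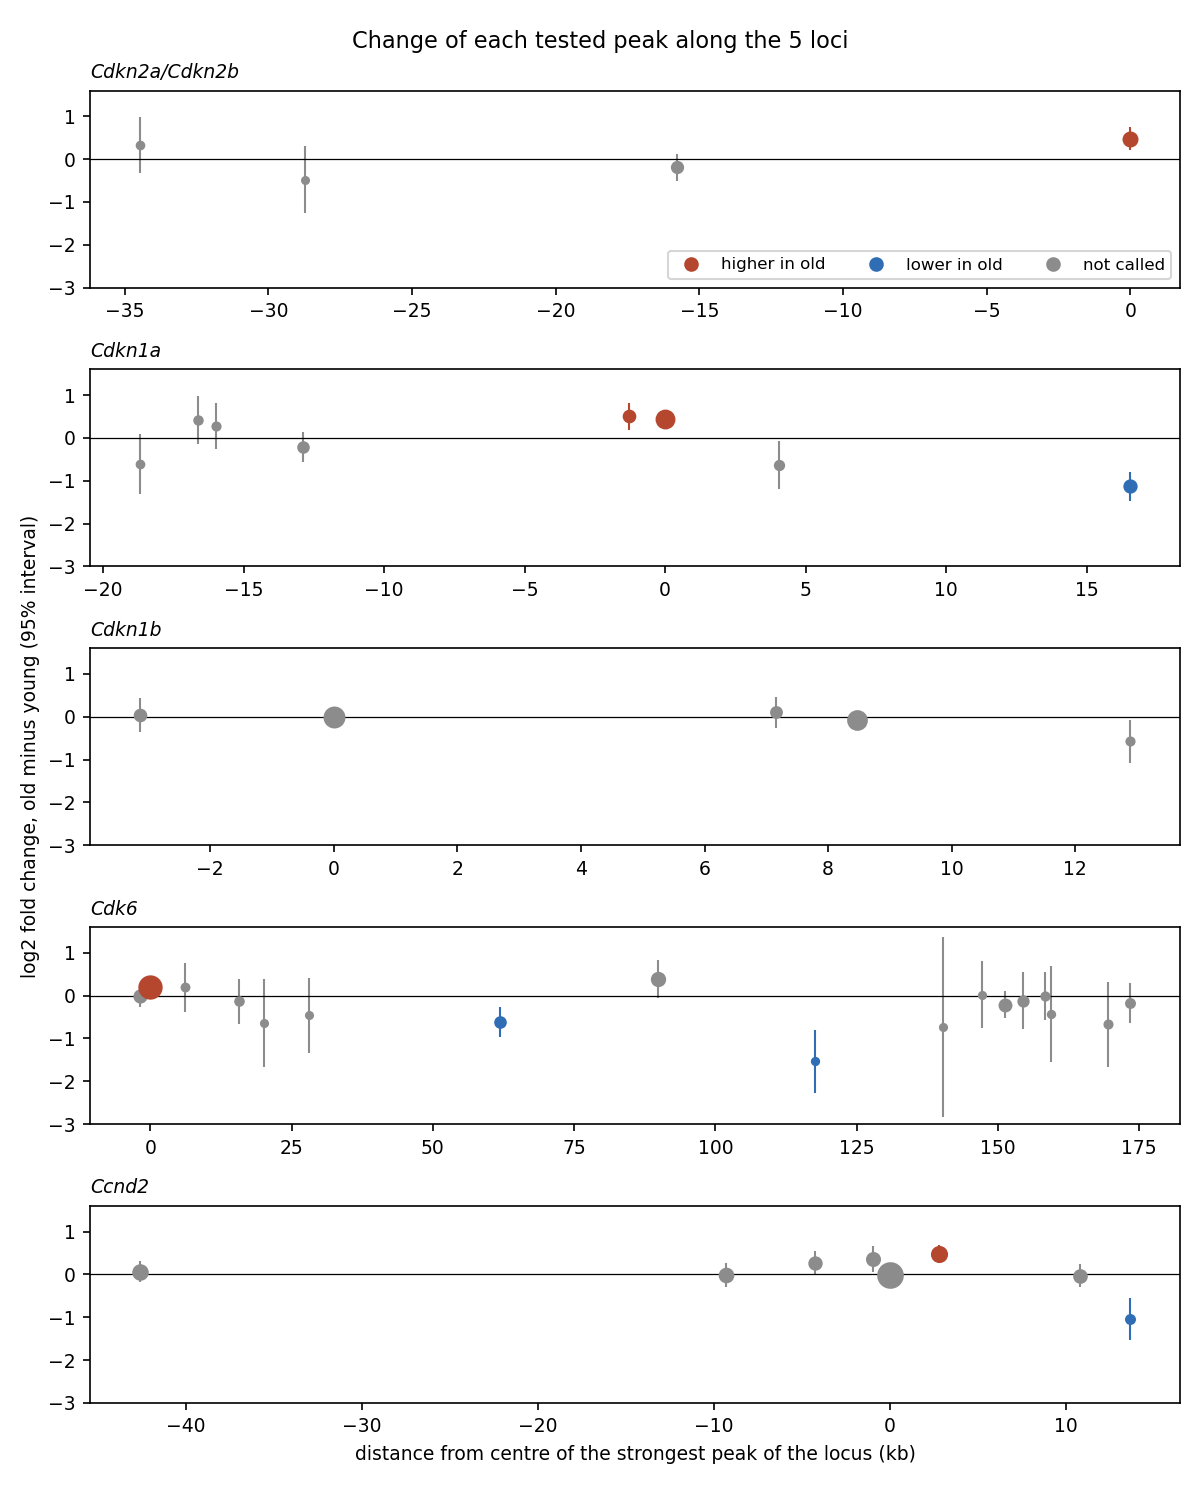
Log2 fold change (old minus young) of the 42 tested peaks against distance from the centre of the strongest peak of each window in kb, with 95% intervals; point area grows with mean CPM. The strongest peaks of the Cdkn2a/Cdkn2b, Cdkn1a and Cdk6 windows lie above 0, those of Cdkn1b and Ccnd2 lie at 0, and the 4 peaks called lower lie 13.7 to 118 kb to the right of the strongest peak.

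The summed level of a window was not called different in any of the 5 loci. No sum had an unadjusted edgeR p below 0.05 (0.0664 to 0.727), and neither DESeq2 nor limma voom called one. Sums were tested among windows of equal width tiled over the genome, with p adjusted over all tested windows. Over the 8 peaks of Cdkn2a and Cdkn2b the sums were 53.7, 48.8, 54.4 and 48.4 CPM in the old libraries, against 43.8, 43.3, 42.8 and 51.7 CPM in the young ones. Young replicate 4 lay among the old libraries and the other 3 young libraries lay below them. The log2 fold change was 0.17 ± 0.089 (SE; 95% interval -0.013 to 0.36; edgeR adjusted p = 0.158), where 27.1% of windows of that width were called.

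At Cdkn1a the window summed to 106 to 114 CPM in old and 104 to 117 CPM in young HSCs, with a log2 change of 0.020 ± 0.056 (95% interval -0.098 to 0.14; edgeR adjusted p = 0.826; 25.3% of windows called). The Cdkn1b window gave 124 to 143 CPM in old and 122 to 148 CPM in young HSCs, with a log2 fold change of -0.036 ± 0.062 (95% interval -0.17 to 0.094; edgeR adjusted p = 0.715; 25.0% called). For both genes the groups overlapped throughout. The Cdk6 window had 187, 188, 191 and 221 CPM in old replicates 1 to 4, against 217, 191, 188 and 205 CPM in young replicates 1 to 4. Its log2 fold change was -0.022 ± 0.060 (95% interval -0.15 to 0.10; edgeR adjusted p = 0.810; 31.1% called), and old replicate 4 lay above the other 7 libraries. At Ccnd2 the sums were 242, 244, 239 and 229 CPM in old against 224, 233, 223 and 225 CPM in young libraries. Only the lowest old and the highest young library were out of order, and the log2 fold change was 0.075 ± 0.042 (95% interval -0.012 to 0.16; edgeR adjusted p = 0.191; 28.0% called).

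**Figure D2:**
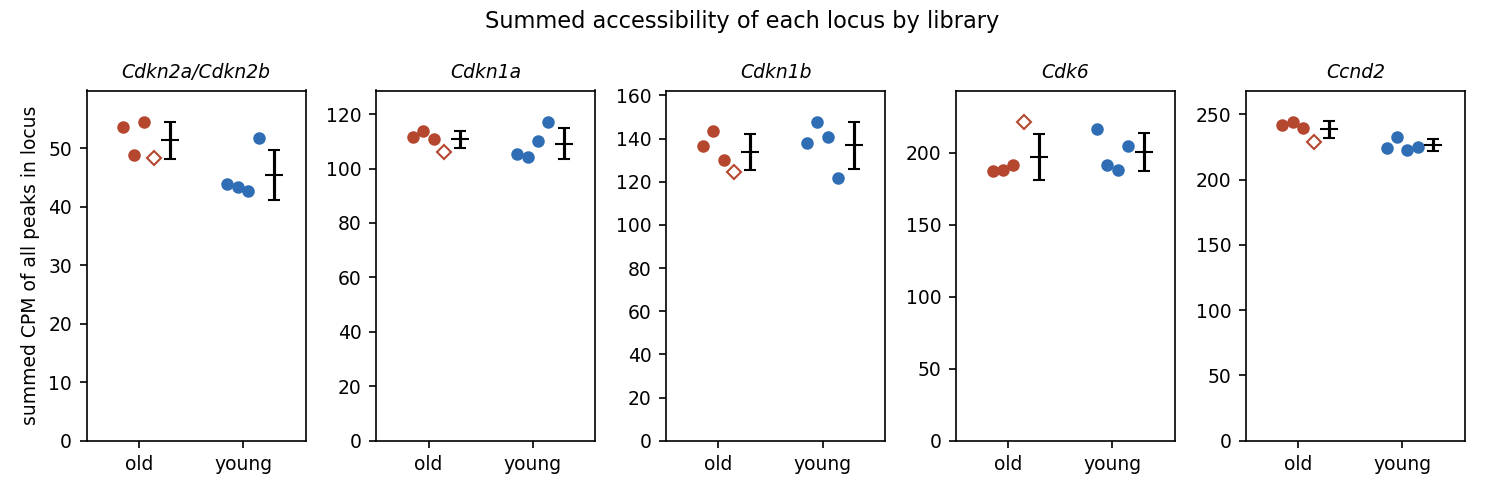
Summed CPM of all peaks in each window, old left of young; points are libraries, the open diamond is old replicate 4, and the bar is mean ± SD of 4 libraries. The groups overlap in all 5 windows, and old replicate 4 has 221 CPM at Cdk6, above the other libraries.

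Per kilobase of window, Cdkn1b was the most accessible at 3.82 ± 0.236 CPM per kb in old and 3.91 ± 0.313 CPM per kb in young HSCs (mean ± SD of 4 libraries). Ccnd2 followed with 3.18 ± 0.0889 in old and 3.02 ± 0.0610 CPM per kb in young, then Cdkn1a with 2.77 ± 0.0798 and 2.73 ± 0.145 CPM per kb. Cdk6, a long gene, had 0.938 ± 0.0769 in old and 0.953 ± 0.0629 CPM per kb in young libraries. Cdkn2a/Cdkn2b was the least accessible at 0.856 ± 0.0531 in old and 0.757 ± 0.0703 CPM per kb in young. Neighbours in this order had separate ranges in each group, except Cdk6 and Cdkn2a/Cdkn2b in old libraries, whose lowest Cdk6 value (0.892) lay below the highest Cdkn2a/Cdkn2b value (0.907). The level per kilobase depends on where a window was drawn. By the root mean square difference of centred log2 sums over the 8 libraries, the most alike pair was Cdkn1a and Ccnd2 (0.063), and the closest to Cdkn2a/Cdkn2b was Cdkn1a (0.11), to Cdkn1b Ccnd2 (0.092) and to Cdk6 Cdkn1a (0.12).

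In the INK4 window the strongest peak rose in old HSCs and the widest did not. Of its 4 tested peaks 1 was called, where 20.5% of all tested peaks were called. In the RefSeq gene order Cdkn2a comes before Cdkn2b, Mtap lies before the pair and Dmrta1 after it, and both INK4 genes run on the minus strand. The strongest peak, on chromosome 4 from 88956351 to 88957258, was the last of the 8 along the chromosome. Its levels were 28.8, 25.0, 33.2 and 26.7 CPM in old libraries, against 19.6, 20.2, 17.0 and 24.6 CPM in young libraries. Every old library lay above every young one, though the closest pair, old replicate 2 and young replicate 4, nearly met. Old libraries averaged 28.4 ± 3.54 CPM and young ones 20.3 ± 3.14 CPM (SD, n = 4 each), a log2 fold change of 0.47 ± 0.13 (SE) at an adjusted p of 0.0125 by edgeR. Without old replicate 3 it missed the threshold (log2 fold change 0.41, edgeR adjusted p = 0.0542).

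The widest peak of this window, 1612 bases from 88940209 to 88941821, had 13.7, 12.6, 11.1 and 13.9 CPM in old against 13.5, 13.9, 14.5 and 16.6 CPM in young libraries. The groups overlapped, and its log2 fold change of -0.19 had a 95% interval of -0.51 to 0.13 (edgeR adjusted p = 0.417). The other 2 tested peaks, 28.7 and 34.5 kb before the strongest, had fold changes of -0.48 and 0.32 on the log2 scale, neither called. The 4 untested peaks of the window held 31 to 60 counts each over all libraries.

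Cdkn1a, the p53 target that encodes p21, had 2 adjacent peaks that rose and 1 distant peak that fell. These were 3 of its 8 tested peaks, where 20.5% of all tested peaks were called. With only 8 peaks tested, 3 calls do not set this window apart from that share. RefSeq places Srsf3 before and Rab44 after this gene. The strongest peak, on chromosome 17 from 29231297 to 29232805, had 55.2, 50.9, 47.3 and 45.5 CPM in old libraries, against 37.1, 36.0, 38.5 and 35.8 CPM in young libraries. The groups were well apart, with 49.7 ± 4.32 CPM in old and 36.8 ± 1.25 CPM in young (SD, n = 4 each) and a log2 fold change of 0.43 ± 0.085 (SE) at an adjusted p of 0.00119 by edgeR. It was called under all the alternatives that were run, with adjusted p between 0.000112 and 0.00686.

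Centred 1.3 kb before it, the peak from 29230473 to 29231028 had 18.8, 17.5, 19.4 and 16.1 CPM in old against 11.7, 13.9, 10.3 and 14.4 CPM in young libraries. Its groups did not overlap and its log2 fold change was 0.50 ± 0.15 (SE) at an adjusted p of 0.0220 by edgeR, but DESeq2 gave an adjusted p of 0.0608. Without old replicate 1, old replicate 3, young replicate 1 or young replicate 3 its edgeR adjusted p was 0.0560 to 0.0768. In contrast, the peak from 29248221 to 29248974, 16.6 kb beyond the strongest, had 8.66, 9.47, 11.1 and 14.5 CPM in old libraries, against 21.5, 21.5, 27.8 and 25.6 CPM in young libraries. It had the smallest p of the 42 tested peaks, fell to 10.9 ± 2.57 CPM in old against 24.1 ± 3.14 CPM in young (SD, n = 4 each), and had a log2 fold change of -1.13 ± 0.16 (SE) at an adjusted p of 7.45e-05 by edgeR. Old replicate 4 was the highest of the old libraries there and still below the young ones. Of the other 5 tested peaks none was called, at log2 fold changes between -0.63 and 0.42. The untested peak of this window, with 35 counts in all, averaged 1.26 CPM in old and 0.739 CPM in young HSCs. Its groups did not overlap, but its counts were only 5 to 7 per old and 2 to 4 per young library. Of all untested peaks 14.3% had groups apart.

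Cdkn1b, which encodes p27, was the window without a called peak: edgeR called 0 of 5, as did DESeq2 and limma voom, and 1 of 5 had an unadjusted edgeR p below 0.05. Over all tested peaks edgeR called 20.5%, DESeq2 14% and limma voom 20.4%. With only 5 peaks tested, 0 calls do not set this window apart from those shares. RefSeq has Gpr19 before Cdkn1b and Apold1 after it. Its strongest peak, on chromosome 6 from 134869478 to 134870849, had 58.3, 57.6, 49.6 and 54.8 CPM in old libraries, against 58.3, 51.3, 58.0 and 53.9 CPM in young libraries. The groups interleaved, and the log2 fold change of -0.0060 had a 95% interval of -0.17 to 0.15 (edgeR adjusted p = 0.969). A second strong peak from 134877964 to 134879298 had 46.8 CPM on average in old and 49.3 CPM in young libraries, with a log2 fold change of -0.075 (95% interval -0.28 to 0.13; edgeR adjusted p = 0.650).

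The smallest p of the Cdkn1b window belonged to its narrowest peak, 250 bases from 134882932 to 134883182. It had 4.07, 3.997, 3.46 and 3.31 CPM in old against 5.60, 5.26, 5.50 and 5.82 CPM in young libraries. The groups did not overlap, yet with 15 to 27 counts per library its log2 fold change of -0.58 ± 0.24 (SE) was not called (edgeR adjusted p = 0.0892).

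**Figure D3:**
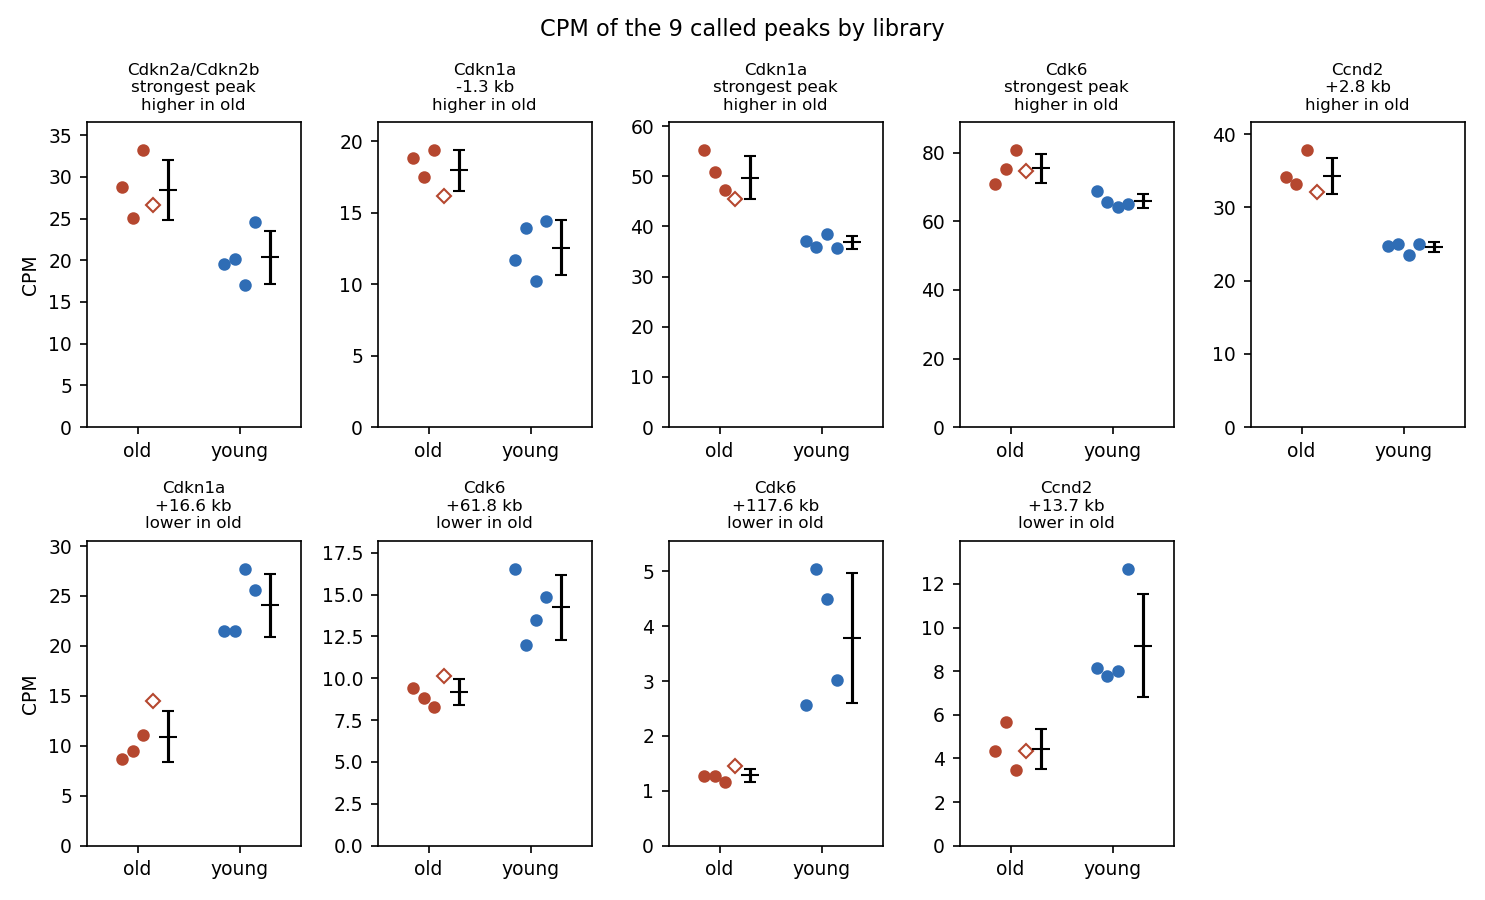
CPM of the 9 called peaks in each library, old left of young, with distance from the strongest peak of the window above each panel; the open diamond is old replicate 4 and bars are mean ± SD of 4 libraries. In each panel the 4 old libraries lie on one side of the 4 young ones, by a wide gap at the Cdkn1a peak at 16.6 kb and by a narrow one at the strongest Cdkn2a/Cdkn2b peak (25.0 CPM in old replicate 2, 24.6 CPM in young replicate 4).

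Cdk6, the kinase gene, had a slightly higher strongest peak and 2 lower distal peaks in old HSCs. The other 14 of its 17 tested peaks were not called, where 20.5% of all tested peaks were called. Fam133b follows Cdk6 in the RefSeq order. Its strongest peak, on chromosome 5 from 3342109 to 3344712 and 2603 bases wide, had 70.8, 75.3, 80.7 and 74.6 CPM in old libraries, against 68.8, 65.7, 64.3 and 65.1 CPM in young libraries. The groups did not overlap, at 75.4 ± 4.10 CPM in old and 65.9 ± 1.99 CPM in young (SD, n = 4 each). The log2 fold change of 0.19 ± 0.066 (SE) at an adjusted p of 0.0417 by edgeR was the smallest of the 9 called and depended on the processing. It was 0.12 with loess offsets (adjusted p = 0.196), and its adjusted p was 0.107 over peaks with a mean count of at least 50 and 0.140 with DESeq2. Leaving out old replicate 2 or 3 or young replicate 2, 3 or 4 also ended the call, with edgeR adjusted p of 0.0701 to 0.112.

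The peak from 3404645 to 3405791, 61.8 kb beyond the strongest, had 9.42, 8.84, 8.30 and 10.1 CPM in old against 16.6, 12.0, 13.5 and 14.9 CPM in young libraries. It fell by 0.63 on the log2 scale (SE 0.17) at an adjusted p of 0.0112 by edgeR, with the groups apart. The peak from 3460884 to 3461206, 118 kb beyond the strongest, was weak in both groups, with 1.27, 1.26, 1.15 and 1.45 CPM in old and 2.57, 5.05, 4.50 and 3.02 CPM in young libraries. Its counts were 5 to 7 per old library and 11 to 24 per young library. The log2 fold change of -1.54 ± 0.35 (SE) at an adjusted p of 0.00398 by edgeR was the largest of the 42 tested peaks in size. The 11 untested Cdk6 peaks had 22 to 55 counts each, and old libraries lay below all young ones at 2 of them (14.3% of all untested peaks had groups apart in either direction), from 3420892 to 3421172 and from 3422770 to 3422986.

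Old replicate 4 differed from the other old libraries across the Cdk6 window, and it also lay apart from them over all tested peaks. It was above the other 3 old libraries at 12 of the 17 tested peaks, and above the other 7 libraries at 9. Old replicates 1, 2 and 3 were each the highest old library at 2, 0 and 3 of these peaks. In the other windows old replicate 4 was the highest old library at 1 of 8 (Cdkn1a), 1 of 4 (Cdkn2a/Cdkn2b), 1 of 8 (Ccnd2) and 0 of 5 (Cdkn1b) tested peaks. Over all 42 it was above the other old libraries at 15 and below them at 15. The share over all tested peaks of the table was not analysed here. The 9 tested Cdk6 peaks more than 100 kb beyond the strongest were a group picked after their values were seen. They summed to 40.7, 38.1, 40.1 and 69.9 CPM in old replicates 1 to 4, against 62.3, 59.1, 54.0 and 57.3 CPM in young replicates 1 to 4. Old replicates 1 to 3 were thus below all young libraries there and old replicate 4 above them. At the peak from 3497488 to 3498059 old replicate 4 had 19.0 CPM, against 7.64, 7.57 and 6.00 CPM in old replicates 1 to 3 and 9.47 to 12.1 CPM in young libraries. What sets this library apart was not tested.

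Without old replicate 4, 16 of the 42 peaks were called, 7 higher and 9 lower in old, where 30.0% of all tested peaks were called. These held all 9 peaks called with 8 libraries. Of the 7 added, 6 lay in the Cdk6 window, which held 17 of the 42 tested peaks. Old replicate 4 was above the other old libraries at 12 of these 17, so leaving it out favours lower levels in old there. The values without it show how the calls depend on 1 library and are no separate support for a change at Cdk6. The peak from 3512515 to 3513058 then averaged 1.99 ± 1.18 CPM in the 3 old libraries and 5.59 ± 0.927 CPM in the 4 young ones (SD), a log2 fold change of -1.51 ± 0.34 (SE) at an adjusted p of 0.000988 by edgeR, and old replicate 4 had 7.86 CPM. At the peak from 3483351 to 3483870 the averages were 0.424 ± 0.735 CPM in old and 2.92 ± 0.850 CPM in young HSCs (edgeR adjusted p = 0.00174), and old replicate 4 had 5.37 CPM. The peak from 3432577 to 3433834 went the other way, at 27.0 ± 1.99 CPM in old against 18.6 ± 5.71 CPM in young (log2 fold change 0.54, edgeR adjusted p = 0.0201), while old replicate 4 had 16.7 CPM. The remaining 3 added Cdk6 peaks were lower, with log2 fold changes of -1.55, -0.64 and -1.32.

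**Figure D4:**
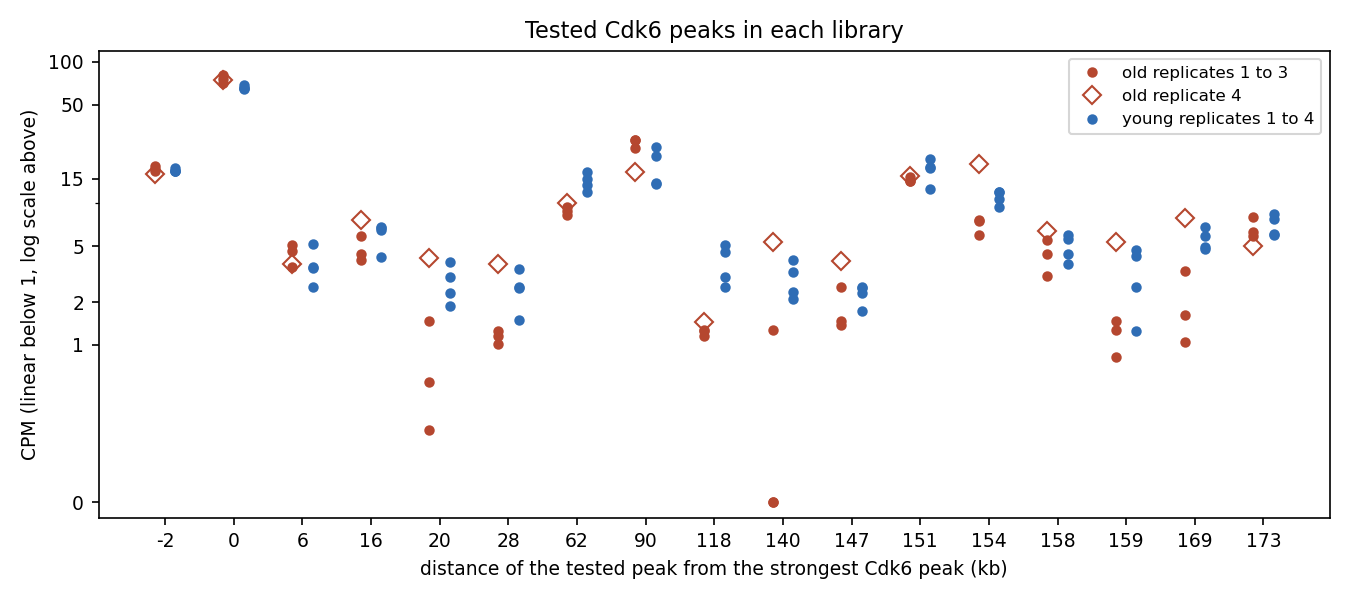
CPM of the 17 tested Cdk6 peaks in each library (linear below 1, log scale above), in order of distance in kb from the strongest peak; old libraries stand left of young ones at each peak, with old replicate 4 as an open diamond. Beyond 100 kb old replicates 1 to 3 sum to 38.1 to 40.7 CPM and old replicate 4 to 69.9 CPM.

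Ccnd2, which encodes cyclin D2, a partner of CDK6, had the highest single peak of the 5 windows, and that peak was not called. Tigar lies before it and Parp11 after it in the RefSeq order. On chromosome 6 from 127101565 to 127102747, this peak had 86.8, 85.8, 83.5 and 90.3 CPM in old libraries, against 89.1, 89.4, 87.0 and 86.0 CPM in young libraries. The groups overlapped, with a log2 fold change of -0.020 and a 95% interval of -0.14 to 0.10 (edgeR adjusted p = 0.850). Of the 8 tested Ccnd2 peaks 2 were called, 1 higher and 1 lower in old, where 20.5% of all tested peaks were called. The peak from 127104627 to 127105301, 2.81 kb beyond the strongest, had 34.1, 33.2, 37.8 and 32.0 CPM in old against 24.7, 25.0, 23.5 and 25.0 CPM in young libraries. It was higher in all old libraries, by 0.48 ± 0.10 on the log2 scale (SE) at an adjusted p of 0.00195 by edgeR.

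At 13.7 kb beyond the strongest, the Ccnd2 peak from 127115589 to 127116061 had 4.33, 5.68, 3.46 and 4.34 CPM in old libraries, against 8.16, 7.79, 8.001 and 12.7 CPM in young libraries. Its log2 fold change was -1.04 ± 0.24 (SE) at an adjusted p of 0.00379 by edgeR, with young replicate 4 far above the other young libraries. The peak from 127097748 to 127098036 was higher in each old library, at 17.6 to 22.5 CPM against 15.5 to 16.8 CPM in young, but its log2 fold change of 0.27 was not called (edgeR adjusted p = 0.159). The peak just before the strongest, from 127100954 to 127101475, had 20.9 to 24.2 CPM in old and 14.0 to 23.8 CPM in young HSCs and was called without old replicate 4 (log2 fold change 0.41, edgeR adjusted p = 0.0373).

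The share of the counts of a window that fell in its strongest peak is unchanged by a single scale factor per library. Scaling that varies with the level of a peak, such as loess offsets, could change this share and was not applied to it. The share was chosen after the values were seen and rests on the same counts as the calls. It therefore describes them in another way and is given without a test. At Cdkn1a the strongest peak held 49.4%, 44.7%, 42.6% and 42.8% of the counts in old libraries, against 35.2%, 34.5%, 35.0% and 30.6% in young libraries. All old libraries lay above all young ones, and 18.2% of windows of that width had shares that did not overlap between the groups, in either direction. The other Cdkn1a peaks together had 61.0 ± 3.20 CPM in old and 72.3 ± 6.14 CPM in young (SD, n = 4 each). They did not all fall. The peak 16.6 kb beyond the strongest averaged 10.9 CPM in old and 24.1 CPM in young, and that 1.3 kb before it 17.95 CPM in old and 12.6 CPM in young. At Cdkn2a/Cdkn2b the share was 53.5%, 51.3%, 61.0% and 55.1% in old against 44.7%, 46.6%, 39.8% and 47.5% in young libraries, again without overlap, where 19.0% of windows of that width had groups apart.

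In the other 3 windows the groups overlapped, where 17.8% of windows of the Cdkn1b width, 22.9% of the Cdk6 width and 20.0% of the Ccnd2 width had groups apart. At Cdkn1b the share was 41.3 ± 2.59% in old and 40.6 ± 4.09% in young (SD, n = 4 each). At Cdk6 it was 38.4 ± 3.60% in old and 33.0 ± 1.44% in young. Old replicate 4, at 33.8%, was the only old library within the young range (31.8% to 34.3%), and the others lay above it. At Ccnd2 it was 36.4 ± 2.11% in old and 38.9 ± 0.709% in young. Old replicate 4, at 39.5%, was again the only old library within the young range (38.2% to 39.7%), and the others lay below it. Leaving out the overlapping library parts the groups by construction. How many windows part without old replicate 4 was not analysed here.

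**Figure D5:**
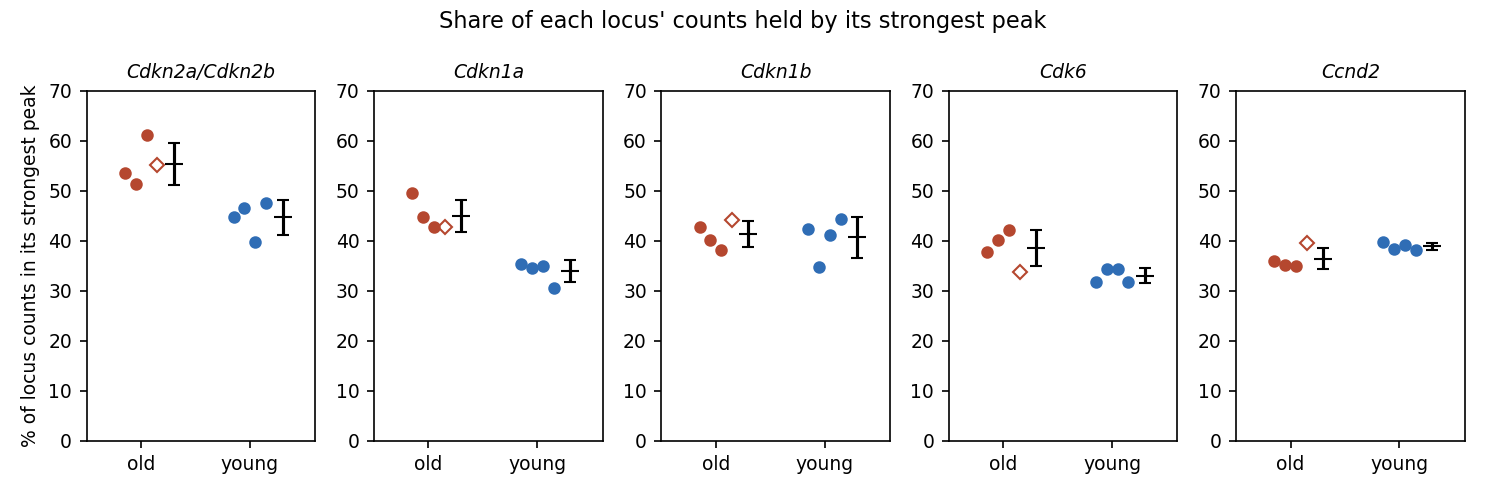
Percent of the counts of each window in its strongest peak, old left of young; points are libraries, the open diamond is old replicate 4, and bars are mean ± SD of 4 libraries. Old libraries lie above young ones at Cdkn2a/Cdkn2b and Cdkn1a, and the groups overlap at Cdkn1b, Cdk6 and Ccnd2.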

How the data were processed

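Read counts per peak were deposited by the authors as whole numbers, not normalized, over 1 peak set shared by 4 old and 4 young libraries. Per the submitters' processing notes, mm9, Bowtie2, MACS2, SAMtools, Picard, FastQC and Trim Galore were used, and no version is stated. How peaks were merged and counted, and whether reads were shifted for the transposase, is not given in the sources used here. All 126871 peaks entered edgeR 4.0.16 in R 4.3.3 (filterByExpr, minimum count 10 and total 15; TMM; glmQLFit, robust; group as the only term), which kept 73164 peaks and 94.2% of counts. Window sums used the library sizes and TMM factors of the peaks; for each locus the genome was tiled in windows of its width (60, 40, 35, 210 or 75 kb) so that the locus was 1 tile. Windows with at least 2 peaks gave the rates for the shares of counts. Standard errors from edgeR were approximated as the absolute log2 fold change divided by the square root of the quasi-likelihood F. The 95% intervals are the log2 fold change plus or minus that error times a t quantile. Alternatives used DESeq2 1.42.0 and limma 3.58.1.

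Named peaks are those called, plus the strongest and the smallest p of each window; other peaks with values were chosen after these were seen, as were the shares of counts. Members and lists were chosen with earlier results of these data known. Markers of HSCs and of other marrow cells, and further cell cycle genes, were not analysed here, since no mm9 annotation was used. Every pair of libraries differed by more than counting error, at a chi-square of 1.19 or more per tested peak. Among old replicates 1 to 3 this value was 1.19 to 1.29. Old replicate 4 was nearest to young replicate 2 (2.08) and next to the other old libraries (2.15 to 2.59).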

Additional observations from a re-analysis of the deposited data

Results flagged for a closer look

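In 116 sets of 4 libraries screened for 1 far from the other 3 (all tested peaks, sums and shares in each group), 13 such libraries were found. About 1 in 20 independent sets, or 5.8 of 116, would show one by chance. The sets were not independent, since sums and shares hold the same counts as their peaks. The sum of the distant Cdk6 peaks was also picked after its values were seen. The 13 can therefore not be measured against that figure. Old replicate 4 was the library in 8 of the 13. Of these 8, 6 were at Cdk6, and they overlap, being sums and peaks inside those sums.

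At Cdk6 old replicate 4 was high in the sum of the window (221 CPM, the other old libraries 187 to 191), in the sum of all peaks but the strongest (146 CPM, the others 111 to 117) and in the sum of the peaks over 100 kb away (69.9 CPM, the others 38.1 to 40.7). It was also high at the peaks from 3371301 to 3371692 (3.72 CPM, the others 1.02 to 1.26), from 3497488 to 3498059 (19.0 CPM, the others 6.00 to 7.64) and from 3502554 to 3502954 (5.37 CPM, the others 0.923 to 1.47). At Ccnd2 it was low in the sum of all peaks but the strongest (138 CPM, the others 155 to 158) and at the peak from 127058993 to 127060049 (25.2 CPM, the others 27.8 to 28.2). The cause was not tested.

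Young replicate 4 was high in the sum of the Cdkn2a/Cdkn2b window (51.7 CPM, the other young libraries 42.8 to 43.8), at the Ccnd2 peak from 127115589 to 127116061 (12.7 CPM, the others 7.79 to 8.16) and, by a small margin, at the Cdk6 peak from 3341128 to 3342030 (17.7 CPM, the others 17.0). It was low in the share of Cdkn1a counts in the strongest peak (30.6%, the others 34.5% to 35.2%). Young replicate 2 was low at the Cdk6 peak from 3358730 to 3359417 (4.21 CPM, the others 6.46 to 6.76).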

How the results depend on the processing

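No window sum was called under any alternative run. Sums near 0 changed sign: Cdkn1a to -0.0023 with loess offsets and -0.027 with a mean count of at least 50, and Cdk6 to 0.013 without a count filter. Leaving out 1 library gave log2 fold changes of 0.14 to 0.24 for Cdkn2a/Cdkn2b, -0.0049 to 0.056 for Cdkn1a, -0.089 to 0.0083 for Cdkn1b, -0.075 to 0.018 for Cdk6 and 0.067 to 0.10 for Ccnd2. Member peaks called were 2 higher and 3 lower at an adjusted p below 0.01, 4 higher and 2 lower with a mean count of at least 50 (which drops 2 of the 4 lower peaks as too weak to test), and 3 higher with DESeq2. Leaving out 1 library gave 2 (without old replicate 3) to 7 (without old replicate 4) higher and 4 to 9 lower. Among all tested peaks, 2377 were higher and 2800 lower with a mean count of at least 50, and 5184 to 10997 higher and 5199 to 11802 lower with 1 library left out. With a mean count of at least 50 only 23905 peaks were tested, 22 of them members, and 21.7% of the 23905 were called, against 20.5% in the main fit. DESeq2 called 14% of all tested peaks, and leaving out 1 library gave 13.8% to 30%.

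Of 177 values of the 12 named peaks under alternatives, 156 kept direction and call, 14 lost a call and 7 changed sign. The sign changes were at the uncalled strongest peaks of Ccnd2 (0.015 without a count filter; -0.032 to 0.012 with 1 library left out) and Cdkn1b (0.029 without a count filter; -0.044 to 0.056 with 1 library left out). Differences in the share of counts in the strongest peak, with 1 library left out, were 8.69 to 11.9 points at Cdkn2a/Cdkn2b, 9.56 to 11.8 at Cdkn1a, -1.33 to 1.82 at Cdkn1b, 4.21 to 7.01 at Cdk6 and -3.51 to -1.99 at Ccnd2.

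Deviations from group means of same-numbered libraries correlated at -0.014, 0.074, 0.049 and 0.18, and old replicates 1 and 3 correlated best with another number, so the numbers were not taken as pairs. With a replicate block 5 member peaks were higher and 4 lower, and among all tested peaks 8111 were higher and 8647 lower (22.9% called).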
